A study of Mus musculus with 20 samples.

Results

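The genes Mir124a-1, Mir124a-2 and Mir124a-3 encode hairpin precursors of miR-124, and DNA methylation around them was examined in neurons and non-neurons of the mouse hypothalamus. The members are the restriction intervals that overlap a window reaching 15 kb to either side of each hairpin on the mm9 assembly. There were 5 such intervals among the 50782 in the table: 1 in the Mir124a-1 window, 0 in the Mir124a-2 window and 4 in the Mir124a-3 window. The loci were taken up because the Mir124a-1 interval had stood out for low read counts in neurons at both ages. Its difference between cell types is therefore given as a description and was not tested, whereas its change with age was.

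Nuclei came from hypothalami of inbred male C57BL/6 mice at postnatal day 21 (P21) or on the day of birth (P0) and were sorted into neurons and non-neurons by staining for NeuN, a nuclear protein of most neurons. The groups were P21 neurons, P0 neurons, P21 non-neurons and P0 non-neurons, with 5 libraries each that the labels call biological replicates, and each library pooled 2 hypothalami. The sorted fractions mix all neuron types on one side and all other nuclei, such as those of glia and vessels, on the other. In the assay unmethylated CCCGGG sites are first cut with SmaI, methylated ones are then cut with XmaI, and fragments with XmaI ends at both sides are ligated to adaptors, amplified and sequenced. More reads at an interval thus stand for more methylation at both of its flanking sites, on a relative scale. The table holds methylation and no expression, so the purity of the sort was not checked here.

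miR-124 is a microRNA strongly enriched in neurons of the vertebrate brain. It pairs through its seed with many transcripts of non-neuronal cells and lowers their levels, and one of its targets is Ptbp1, a splicing repressor that falls as neurons form. In non-neuronal cells the repressor REST binds the miR-124 genes, and in several human cancers these genes carry dense methylation. In the RefSeq annotation of a later assembly (GRCm38.p6), Mir124a-1 lies within the long non-coding RNA gene Mir124a-1hg, also called Rncr3, between the protein-coding genes Msra, a methionine sulfoxide reductase, and Kif13b, a kinesin motor. Mir124a-2 lies within the host gene Mir124-2hg. Mir124a-3 lies between Bhlhe23, a basic helix-loop-helix transcription factor, and Ythdf1, a reader of methylated adenosine in RNA.

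The intervals lay differently in the windows. The Mir124a-1 interval, chr14:65213241-65214128, was 887 bp long. It ran from 3741 to 4628 bp to the higher-coordinate side of the window's centre, where the hairpin is placed. The hairpin positions were not checked against an mm9 annotation. The 4 Mir124a-3 intervals touched one another and spanned 1605 bp with 5 cut sites. In order they were chr2:180627592-180628010, chr2:180628010-180628520, chr2:180628520-180628847 and chr2:180628847-180629197, called intervals 1 to 4 of Mir124a-3 below, and interval 3 contained the centre. Their lengths were 418, 510, 327 and 350 bp, all shorter than the median of 611 bp over the table, in which 53.0% of intervals touched another one. No interval of the table overlapped the Mir124a-2 window, so methylation there was not analysed here. The nearest listed intervals to its centre ended 117.3 kb to the lower and began 113.1 kb to the higher side.

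**Figure D1:**
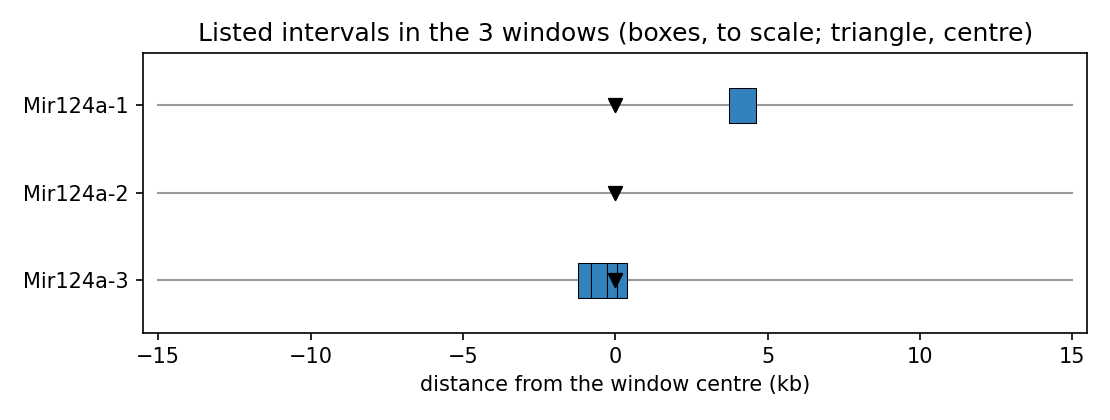
Map of the 3 windows, with distance from the window centre in kb on the horizontal axis and 1 row per locus. Boxes are the listed intervals drawn to scale and the triangle marks the centre: 1 box begins 3741 bp from the centre of Mir124a-1, 4 touching boxes cover the centre of Mir124a-3, and the Mir124a-2 row has none.

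Libraries held 5663740 to 9998110 reads, and replicates of a group correlated at r = 0.964 to 0.983 across the 26679 intervals that passed the filter on low counts. One set of libraries stood apart. The third principal component (5.06% of the variance) gave P0 neuron replicates 1, 2 and 3 scores of 30.2 to 44.3, against -18.9 and -15.7 for replicates 4 and 5. P0 non-neuron replicates 1, 2 and 3 scored -16.2, -8.45 and 9.22, and replicates 4 and 5 scored -27.2 and -42.6, a smaller gap than in neurons. Results on P0 libraries of both cell types are also given within these sets of replicate numbers. Of the 5 members, 1 passed the filter, the Mir124a-1 interval, which held 1335 reads over all libraries, more than 73.4% of all listed intervals. The 4 Mir124a-3 intervals held 19, 28, 6 and 2 reads, more than 15.04% to 33.14% of the intervals, and no library had over 6 reads at any of them.

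The Mir124a-1 interval was nearly free of reads in neurons and well covered in non-neurons at both ages. In P21 neurons replicates 1 to 5 had 2, 11, 12, 9 and 15 reads, which is 0.253, 0.968, 1.23, 0.989 and 1.70 CPM (counts per 1000000 reads of the TMM-scaled library size). In P0 neurons the 5 libraries had 11, 19, 2, 14 and 14 reads, or 1.90, 2.85, 0.352, 2.40 and 2.12 CPM. Replicate 1 was the lowest of the P21 neurons and replicate 3 the lowest of the P0 neurons, and both had only 2 reads. P21 non-neurons had 106, 153, 166, 113 and 148 reads, or 14.8, 21.5, 20.5, 15.7 and 17.4 CPM. P0 non-neurons had 125, 116, 117, 111 and 71 reads, or 19.1, 18.6, 15.9, 17.1 and 12.8 CPM. No neuron library came near the lowest non-neuron library, and within each cell type the values of P21 and P0 overlapped.

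**Figure D2:**
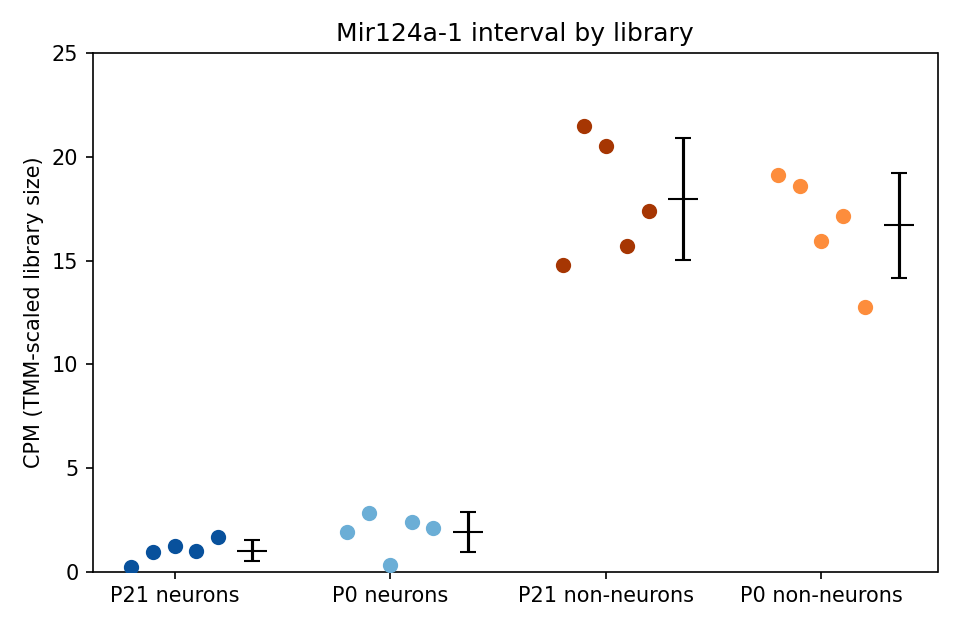
CPM of the Mir124a-1 interval (vertical axis, TMM-scaled library size) in each of the 5 libraries of the 4 groups on the horizontal axis. Points are libraries, and the bar beside them is the mean with 1 SD. Neuron libraries lie between 0.253 and 2.85 CPM, and non-neuron libraries between 12.8 and 21.5 CPM.

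In neurons the interval fell with age. It averaged 1.03 ± 0.52 CPM in P21 neurons and 1.93 ± 0.95 CPM in P0 neurons (SD, n = 5 each). It was 1.86-fold lower at P21, with a log2 fold change of -0.90 ± 0.34 (SE; Benjamini-Hochberg adjusted p = 0.0233 in the quasi-likelihood test of edgeR). Over all tested intervals 26.3% were called lower in this comparison and the median log2 fold change was 0.06. A call in this direction was thus common, and 9.93% of intervals had a lower fold change. The call rests on few reads, 49 in P21 neurons and 60 in P0 neurons, and on single libraries and settings. Over 23 alternatives the edgeR, DESeq2 or limma adjusted p ran from 0.00197 to 0.137, and it missed the threshold of 0.05 with library totals alone (0.0821), with limma-voom (0.137), after a correction for interval length in each library (0.0704) and with only the neuron groups fitted (0.0580). Without P21 neurons replicate 1 the log2 fold change was -0.69 (edgeR adjusted p = 0.0739), without P0 neurons replicate 2 it was -0.71 (edgeR adjusted p = 0.103), and without P0 neurons replicate 4 it was -0.82 (edgeR adjusted p = 0.0575). With P0 libraries limited to replicates 4 and 5 it was -1.10 and with those limited to replicates 1, 2 and 3 it was -0.75 (edgeR adjusted p = 0.0261 and 0.136).

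In non-neurons no change with age was called. The interval averaged 18.0 ± 2.94 CPM in P21 non-neurons and 16.7 ± 2.53 CPM in P0 non-neurons, with SD over 5 libraries of each. Its log2 fold change was 0.10 ± 0.19 (SE; adjusted p = 0.662 with edgeR). The 95% interval of this log2 fold change, -0.27 to 0.48, leaves room for a modest change in either direction. After the correction for interval length it was 0.36 (edgeR adjusted p = 0.0849) and with library totals alone 0.33 (edgeR adjusted p = 0.161), and over 23 alternatives the adjusted p ran from 0.0849 to 0.990. It was 0.25 with P0 libraries limited to replicates 4 and 5 and -0.0037 with those limited to replicates 1, 2 and 3. In this comparison 54.3% of all tested intervals were called in either direction. The age change in neurons minus that in non-neurons was -1.002 ± 0.39 on the log2 scale (SE). It is given without a test because it is also the difference between the cell type contrasts that drew attention to the locus.

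**Figure D3:**
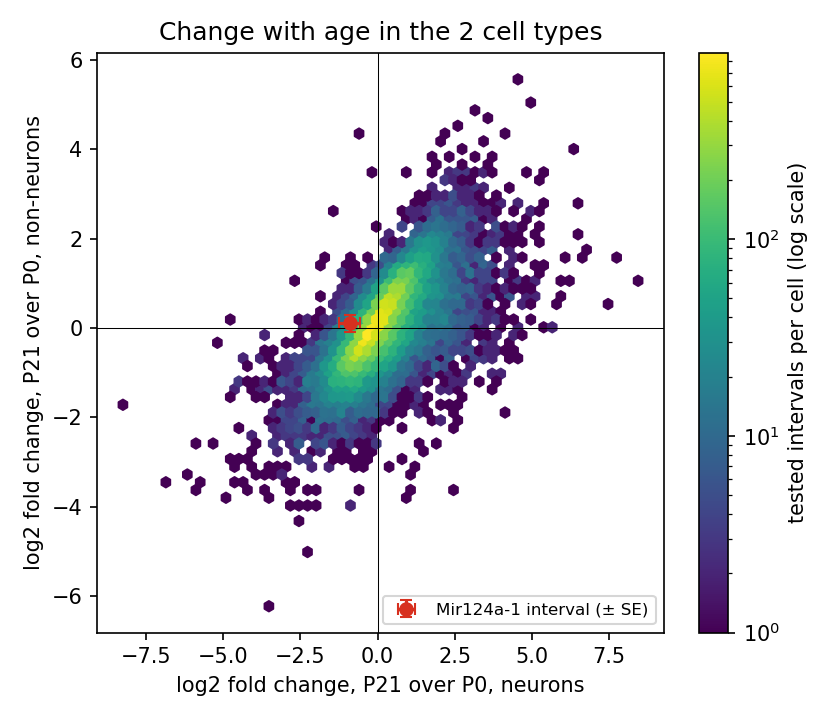
Log2 fold change of P21 over P0 in neurons (horizontal axis) and in non-neurons (vertical axis) for the 26679 tested intervals, coloured by their number per hexagon on a log scale. The red point with SE bars is the Mir124a-1 interval, at -0.90 in neurons and 0.10 in non-neurons, to the left of the centre of the cloud.

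Neurons and non-neurons were fully separated at the Mir124a-1 interval at both ages. The log2 fold change of neurons over non-neurons was -4.09 ± 0.26 at P21 and -3.09 ± 0.25 at P0 (SE), which is 17.0-fold and 8.50-fold lower in neurons. With P0 libraries limited to replicates 4 and 5 the P0 value was -2.73, and with those limited to replicates 1, 2 and 3 it was -3.33. At P21, 17 of the 26679 tested intervals had a lower value, and at P0, 8 had. All 5 neuron values below all 5 non-neuron values were found at 7.33% of tested intervals at P21 and at 2.75% at P0, and 15% and 2.86% were called lower in neurons by edgeR. The interval was picked from these contrasts, so these shares describe the table and nothing is read from them. Set among all tested intervals of the same group, its mean CPM was above 4.42% of intervals in P21 neurons and 17.5% in P0 neurons, against 63.8% in P21 non-neurons and 64.0% in P0 non-neurons. The median tested interval had 10.1 CPM in P21 neurons, 8.25 in P0 neurons, 9.24 in P21 non-neurons and 8.16 in P0 non-neurons. The interval thus lay above the median of its group in non-neurons and below it in neurons.

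The listed intervals next to the window on either side had other values. The nearest listed one outside the window, chr14:65247890-65248305, lay 38.4 kb to the higher-coordinate side of the centre. It averaged 71.9 ± 17.3 CPM in P21 neurons, 83.0 ± 3.65 in P0 neurons, 79.9 ± 19.6 in P21 non-neurons and 75.4 ± 7.68 in P0 non-neurons (SD, n = 5 each). Its age change was not called in either cell type (log2 fold change -0.21 in neurons and 0.08 in non-neurons; edgeR adjusted p = 0.229 and 0.654). On the lower side the nearest listed interval was 426.0 kb away. It averaged 10.4 CPM in P21 neurons, 3.88 in P0 neurons, 5.07 in P21 non-neurons and 4.79 in P0 non-neurons. This interval was called higher at P21 in neurons (log2 fold change 1.43, edgeR adjusted p = 8.6e-07). In non-neurons it was not called (log2 fold change 0.09, edgeR adjusted p = 0.764).

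The pattern of the Mir124a-1 interval over the 20 libraries was also compared with that of the other 26678 tested intervals, by Pearson correlation of log2 CPM. The closest was chr5:34892563-34893165 (r = 0.945), followed by chr4:149049441-149050067 (r = 0.944) and chr6:137310284-137310942 (r = 0.929). The interval on chromosome 5 averaged 1.29 CPM in P21 neurons, 2.92 in P0 neurons, 9.59 in P21 non-neurons and 9.11 in P0 non-neurons. The interval on chromosome 4 averaged 0.125, 0.512, 10.7 and 4.05 CPM in the same groups, and the one on chromosome 6 averaged 13.3, 12.8, 51.0 and 39.8 CPM. All these intervals were lower in both neuron groups, and 14 intervals correlated above 0.9. The correlated values come from the same libraries and follow mainly the split between cell types, so they describe likeness only.

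The Mir124a-3 intervals, at the window's centre and beside it, carried very few reads in any group. Summed over the 4 intervals, P21 neurons had 0 reads in every library. P0 neurons had 5, 2, 3, 7 and 6 reads in replicates 1 to 5. P21 non-neurons had 2, 1, 2, 4 and 5 reads, and P0 non-neurons had 2, 1, 12, 1 and 2. Reads were thus seen in each of the other 15 libraries and in none of the P21 neurons. The 0 of 44992490 reads in P21 neurons allows up to 0.0667 reads per 1000000 over the group (3 counts, counting error only). P0 neurons had 0.683 reads per 1000000, which is 10.2-fold above that ceiling. This ratio takes the 23 reads of P0 neurons as exact, so it is not a strict lower limit of the difference. P21 non-neurons had 0.404 and P0 non-neurons 0.527 reads per 1000000.

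The reads lay mainly at intervals 1 and 2 of Mir124a-3, on the lower-coordinate side of the centre. Interval 2, chr2:180628010-180628520, had 0 reads in all 5 P21 neuron libraries, against 4, 0, 1, 5 and 3 reads in P0 neurons. Per 1000000 reads P0 neurons were 5.79-fold above the P21 ceiling of 3 counts, with their 13 reads taken as exact. In P21 non-neurons it had 2, 0, 0, 1 and 4 reads, and in P0 non-neurons 1, 0, 6, 1 and 0. Interval 1, chr2:180627592-180628010, also had 0 reads in all 5 P21 neuron libraries, against 0, 2, 2, 1 and 2 in P0 neurons. The same ratio was 3.12-fold here and rests on only 7 reads in P0 neurons, so neither ratio is a strict lower limit. In P21 non-neurons it had 0, 0, 2, 3 and 0 reads, and in P0 non-neurons 0, 1, 4, 0 and 2. Both intervals thus had a library at 0 in every group, and the P0 and P21 ranges met at 0.

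Interval 3, which holds the centre, had 0 reads in every P21 neuron library, and P0 neurons had 1, 0, 0, 1 and 1. Replicate 5 of the P21 non-neurons had 1 read and replicate 3 of the P0 non-neurons had 2, with 0 elsewhere. Interval 4 had 1 read in P21 non-neurons replicate 2 and 1 in P0 non-neurons replicate 1, and 0 in all neuron libraries. No group passed 3 reads at interval 3 or interval 4, so no fold change is given for them.

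**Figure D4:**
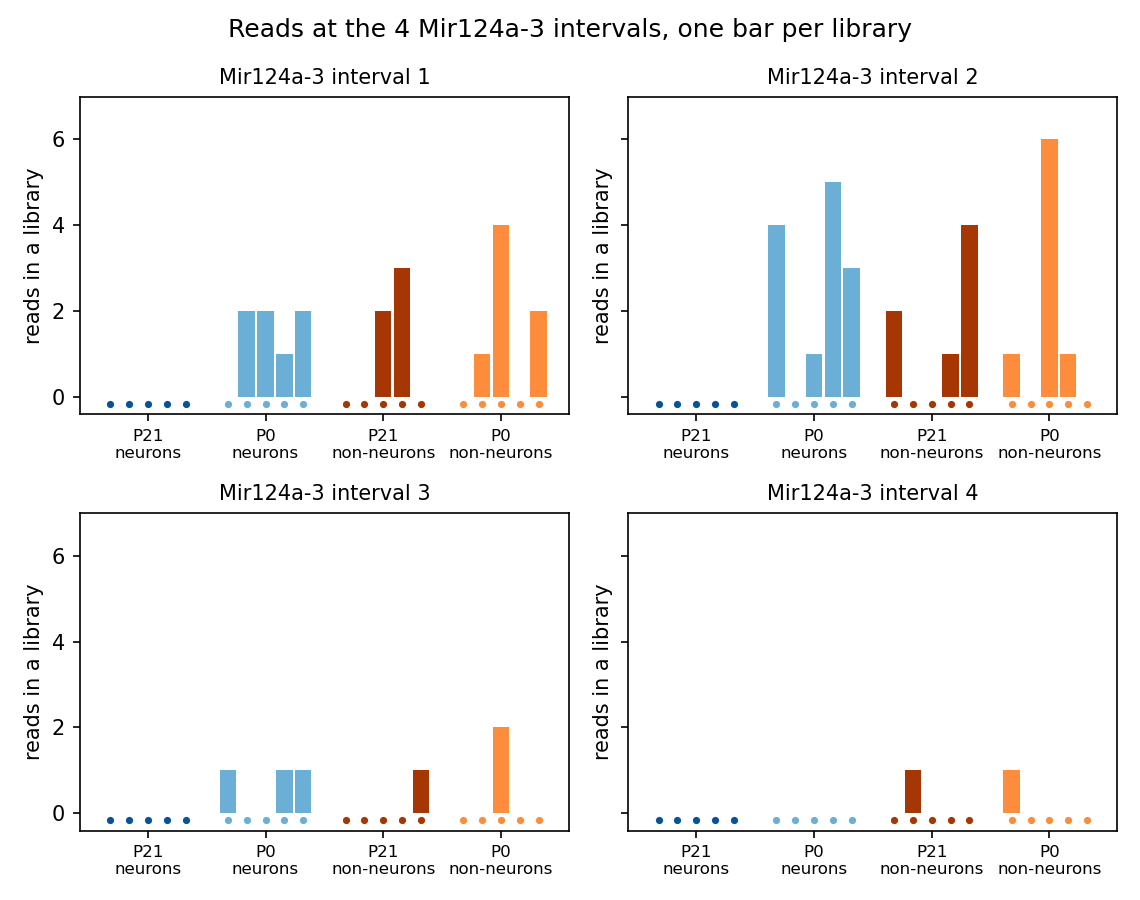
Reads per library (vertical axis) at intervals 1 to 4 of Mir124a-3, one panel each, with 1 bar per library in the order of replicates 1 to 5 within each group on the horizontal axis and a dot below each library's place. P21 neurons have no bar in any panel, and the tallest bar is 6 reads, at interval 2 in P0 non-neurons replicate 3.

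These intervals were below the filter on low counts, so they could be tested only in a fit of all 44545 intervals with at least 1 read. In neurons intervals 2 and 1 were called lower at P21 in that fit (edgeR adjusted p = 8.5e-04 and 0.0100). The fit was chosen after the data were seen and was not tried on simulated data. The calls set 13 and 7 reads in P0 neurons against 0 in P21 neurons. Intervals 1 and 2 also share a cut site, so they are not independent calls. Over 20 alternatives the adjusted p ran from 3.4e-04 to 0.0135 for interval 2, and from 0.00317 to 0.0545 for interval 1, whose call was lost with P0 libraries limited to replicates 4 and 5. In that fit 19.6% of all intervals were called lower in P21 neurons than in P0 neurons. In non-neurons, where 36.4% of all intervals were called in either direction, neither passed (edgeR adjusted p = 0.798 for interval 2 and 0.648 for interval 1). Whether the age change differs between cell types was not tested here. Of the 36214 listed intervals with over 3 reads in P0 neurons, 3.19% had 0 in all P21 neuron libraries. That share includes well covered intervals, and the share among intervals with as few reads as intervals 1 and 2 was not computed. The listed interval just outside the window, chr2:180655085-180655441, 26.3 kb from the centre, had 1 read in P21 neurons and 10 in P0 neurons, and 0 in P21 non-neurons and 7 in P0 non-neurons.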

How the data were processed

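Methylation was measured in 20 libraries, 5 per group. The authors deposited a table of read counts by SmaI/XmaI interval, judged to be unscaled because every value is whole and library totals differ. FastQC 0.10.1, cutadapt, Bowtie 0.12.9 and mm9 are named in the submitters' processing notes, and the counting step is not described in the labels. Columns were matched to samples by age, cell type letter (N, or G for glia of the series title, read as non-neurons) and replicate number.

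Intervals were filtered with filterByExpr (minimum count 10, total at least 15) of edgeR 4.0.16 in R 4.3.3, scaled by TMM and fitted with 1 mean per group over all 20 libraries (glmQLFit, robust), and contrasts were tested with glmQLFTest, with Benjamini-Hochberg adjustment over all 26679 tested intervals and a threshold of 0.05. The biological coefficient of variation was 13.8%. Variances of raw reads were 2.42 to 5.02 times their means at the Mir124a-1 interval, against about 1 for counting error alone, and reads carry no molecular identifiers, so floors of 3 counts cover counting error only. Fold values against these floors use library totals and take the P0 reads as exact. Mir124a-3 intervals were tested in an unfiltered fit chosen after the data were seen.

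Members, lists and tests were chosen with earlier results of these data known. The naming rule took every member, with each library's value for the members nearest the centres, those with an age change of at least 2-fold and the 5 largest cell type differences, and the 3 intervals most like the member with the largest cell type difference. The fit was tested on simulated data for intervals that passed the filter, and the unfiltered fit used for Mir124a-3 was not. Alternatives used DESeq2 1.42.0, limma 3.58.1 (voom) and the settings given at the end. Plots were drawn with matplotlib 3.10.9. Sequences of the precursors are not reported here.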

Additional observations from a re-analysis of the deposited data

Results flagged for a closer look

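At interval 2 of Mir124a-3, chr2:180628010-180628520, P0 non-neurons replicate 3 had 6 reads (0.817 CPM), against 0 or 1 in the other 4 libraries of its group, a gap of 81.1% of the group's range. That library was also the highest of its group at intervals 1 and 3. The check for a value far from the others covered 10 groups of members with at least 4 reads. Its cut is meant to mark about 1 in 20 groups by chance, a rate that need not hold for counts this low.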

How the results depend on the processing

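The fall of the Mir124a-1 interval in neurons kept its direction in all 23 alternatives and its call in 7 of 13 settings and with 7 of 10 libraries left out. It missed the threshold with library totals alone (log2 fold change -0.70), limma-voom (-0.84), the length trend of each library removed (-0.71), only the compared groups fitted (-0.93), P0 limited to replicates 1 to 3 (-0.75) and, by construction, a 2-fold minimum (-0.90); leaving out each library gave -1.15 to -0.69. The cause was not tested. Library totals alone shifted the all-interval median by 0.20 (neurons) and 0.22 (non-neurons), and relative to that median the interval stood at -0.96 in neurons with totals alone as with TMM. Upper-quartile factors shifted that median by -0.19 for cell type at P21. In non-neurons no alternative gave a call; the log2 fold change ran from -0.0037 with P0 limited to replicates 1 to 3 to 0.36 with the length trend removed, was 0.33 with library totals alone, and was 0.02 to 0.17 with each library left out.

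The cell type differences stayed between -4.32 and -3.88 at P21 and between -3.33 and -2.73 at P0, and the difference of age changes between -1.35 and -0.75. At Mir124a-3 in non-neurons, fold changes that were not called turned positive at interval 2 with the length trend removed (0.087) and with P0 limited to replicates 4 and 5 (0.99). Without P0 non-neurons replicate 3 they turned positive at both intervals, and leaving out each library gave -1.10 to 1.04 for interval 2 and -1.51 to 0.090 for interval 1. The replicate block gave -0.90 in neurons and changed no call. Within an age, deviations of same-numbered neuron and non-neuron libraries from their group means correlated at r = -0.0070 to 0.32. Whether same-numbered libraries share tissue or a batch was not tested. Limits on P0 replicates were chosen after seeing the data. With 0 to 6 reads per library, levels at Mir124a-3 cannot be ordered among the groups that had reads. P21 neurons were tested there only against P0 neurons, not against non-neurons.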
